A study of Mus musculus with 16 samples.

Results

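Zbtb16 and 7 other genes of the glucocorticoid response were followed in sorted microglia of the 5xFAD mouse. By the sample labels WT animals were 2 months old and TG animals 6 months old, so genotype and age cannot be told apart in comparisons with WT. Zbtb16 encodes PLZF, a zinc finger transcription repressor whose gene is induced by glucocorticoids in many tissues. Its transcript was barely detected in microglia of WT animals, at 0 to 6 reads per library, and was present at 34 to 153 reads in every library of TG microglia, whether or not the cells had taken up the amyloid dye. Of the other 7 genes none was called between TG Me-X04- and WT microglia, a comparison in which only 0.189% of all genes were called higher and 0.0111% lower, while Fkbp5 and Sgk1 had higher values and Txnip lower ones at an unadjusted p under 0.05. In TG Me-X04+ microglia Txnip and Tsc22d3 were called lower than in WT and Sgk1 higher, beside 6.02% and 8.25% of all genes. Fkbp5, Klf9, Ddit4 and Nr3c1 passed the main test in no comparison. With quantile normalization Nr3c1 was called lower than in WT in place of the call of Sgk1.

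The 8 genes were taken by symbol from the 17951 genes of the deposited table, and all 8 were found there after the authors' filter on low expression. Zbtb16 was chosen by its own values, which were high in both TG groups with no further step on uptake, so its levels are given as a description with no test. The other genes were selected as responders to glucocorticoids (Fkbp5, Tsc22d3, Sgk1, Ddit4, Klf9 and Txnip) or as the receptor itself (Nr3c1). They were tested, though they were chosen with earlier results of these data known.

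Glucocorticoids bind the glucocorticoid receptor in the cytosol, where it is held by heat shock protein chaperones. The bound receptor enters the nucleus and binds DNA as a dimer at a palindrome with a pair of arms, and nearby genes are induced. Microglia express the receptor, and glucocorticoids are known for damping their inflammatory gene expression.

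RNA was sequenced from Cd11b+ and Cd45+ microglia sorted from the brains of mice injected with Methoxy-X04 (Me-X04), a dye that enters the brain and stains amyloid aggregates. All animals carried the strain label 5xFAD, a line in which neurons express human amyloid precursor protein and presenilin transgenes with familial Alzheimer's mutations, and WT animals lacked the transgenes. The 3 groups were WT microglia (n = 7, all without the dye), TG Me-X04- microglia (n = 5), which had not taken up the dye, and TG Me-X04+ microglia (n = 4), which had. By the labels the WT animals were 2 months old and the TG animals 6 months old, so that genotype and age cannot be told apart. The study's methods give other ages, stated for animals of both genotypes together, so the 2 sources differ on this. The sample titles number the TG libraries within each fraction and name no animal. Libraries of the 2 fractions numbered 1 to 4 were read as 4 pairs, which is an assumption.

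Between 15623664 and 27579017 reads per library fell on the listed genes. The libraries formed 2 sets that do not follow the groups, as seen on the first principal component of their deviations from the group means (37.8% of that variance). Set A held WT 1 to 3 and TG replicates 1 and 2 of both fractions, and set B held the other 9 libraries. Set A had 503 to 1831 genes with 0 reads and set B 55 to 524. Mitochondrial genes took 12.6% to 31.3% of the reads in WT libraries, 20.6% to 44.8% in TG Me-X04- and 31.3% to 56.8% in Me-X04+ libraries. Levels are given as log2 RPKM (reads relative to gene length and library size), to which the authors had added a prior of 2 reads at the mean library size. Differences (log2FC) are between group means on that scale.

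All 10 markers of microglia were in the table, and their summed level ranged from 4916 to 7450 RPKM in WT libraries, from 4332 to 8341 RPKM in TG Me-X04- and from 5387 to 8293 RPKM in Me-X04+ libraries. PLZF is also the defining factor of innate-like T cells, so markers of T and NK cells were read. Of 15 such markers 13 were not in the table, Cd3e, Cd3d, Cd3g, Trac, Trbc2 and Cd2 among them. The other two, Lck and Il7r, summed to 10.4 to 29.2 RPKM in WT libraries, 8.17 to 19.3 RPKM in TG Me-X04- and 1.65 to 2.94 RPKM in Me-X04+ libraries, nearly all of it Il7r (mean 15.9, 12.9 and 2.10 RPKM), as Lck had means of 0.145, 0.144 and 0.0762 RPKM. The part of such cells in the Zbtb16 levels was not tested. Il7r, the interleukin-7 receptor, was lower in TG Me-X04+ than in Me-X04- microglia (log2FC -2.55, SE 0.34, limma adjusted p = 0.000427). Markers of neutrophils, of monocytes and border macrophages, of astrocytes, of oligodendrocytes, of neurons and of endothelium, summed for each cell type, did not exceed 29.3 RPKM in any library. None of them was called in TG Me-X04- against WT, beside 0.189% of all genes called higher and 0.0111% lower. At an unadjusted p under 0.05 there were 2 of 4 astrocyte markers, both higher, against 5.18% of all genes. So were 2 of 3 endothelial markers, 1 higher and 1 lower, and 1 of 4 monocyte and border macrophage markers, lower. Flt1, a VEGF receptor, was the only one called on uptake (log2FC 3.55, limma adjusted p = 0.00608), beside 3.44% of all genes called higher and 2.06% lower. The other endothelial markers in the table had lower values on uptake, Pecam1 at -2.47 (limma adjusted p = 0.233) and Cdh5 at -2.41 (adjusted p = 0.0727). All 3 endothelial markers had an unadjusted p under 0.05 there, against 18.7% of all genes. So had 1 marker each of astrocytes, of neurons and of monocytes and border macrophages, each lower. In TG Me-X04+ against WT 1 endothelial marker was called higher, beside 8.25% of all genes. Called lower there were 1 endothelial, 1 neuron and 1 monocyte or border macrophage marker, beside 6.02% of all genes. In bulk RNA fewer cells of a type and less RNA per cell cannot be told apart.

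DNA near the starts of the genes was searched for the receptor's palindrome, since it is the site through which such genes are induced. The arm searched was AGAACA, on both strands. The full element was a pair of these arms facing each other across 3 bases of any kind, and its core was the same arrangement of the shorter arm GNACA, so that every full element also holds a core and 2 arms. RefSeq windows on GRCm38.p6, from 250 bases before to 50 after each gene start, were available for 6 of the 8 genes (13 windows), and Zbtb16 and Nr3c1 had no entry. The full element occurred in 1 of the 13 windows, the fifth of 6 starts of Sgk1, and in 3 of all 32851 windows (0.00913%). A core occurred in that window and in the only window of Txnip, against 0.475% of all windows. A single arm occurred in 4 windows, of Tsc22d3 and Sgk1, against 19% of all windows. Fkbp5, Ddit4 and Klf9 windows held none of these letters. The 2 stretches with a palindrome are shown with 30 bases on each side, the palindrome in capitals, because Sgk1 was higher and Txnip lower in TG Me-X04+ microglia than in WT.
Sgk1, full element, chr10:21993671-21993745, plus strand: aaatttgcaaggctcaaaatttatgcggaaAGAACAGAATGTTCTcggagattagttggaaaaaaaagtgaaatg
Txnip, core, chr3:96557755-96557827, plus strand: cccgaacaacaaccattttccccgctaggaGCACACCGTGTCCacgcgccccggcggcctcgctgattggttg
The Sgk1 element lay 175 bases before its own gene start and 951 bases before the next one, in an intron of the longer annotated Sgk1 transcripts. The Txnip core lay 160 bases before the gene start, in an exon of Gm15441, an antisense gene annotated on the other strand. A match to these letters is a description of the sequence and not a measured binding site.

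Zbtb16 (ENSMUSG00000066687, chr9:48654297-48836222, minus strand) was counted over 5100 bases of exon. In the 7 WT libraries it had 0, 0, 0, 2, 2, 3 and 6 reads. In the 5 TG Me-X04- libraries it had 44, 34, 139, 68 and 102 reads, and in the 4 TG Me-X04+ libraries 38, 106, 40 and 153 reads. Every TG library was above every WT library, and the 2 TG fractions overlapped over most of their range. On the deposited scale WT libraries ran from -5.74 to -3.89 log2 RPKM (mean -5.05 ± 0.72, SD, n = 7), where -5.74 is the value of a gene with 0 reads. TG Me-X04- libraries ran from -1.50 to 0.01 log2 RPKM (mean -0.70 ± 0.59, SD, n = 5) and TG Me-X04+ libraries from -1.47 to 0.49 log2 RPKM (mean -0.35 ± 0.94, SD, n = 4).

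The order of the Zbtb16 levels was thus WT, TG Me-X04- and Me-X04+, of which the last 2 did not differ beyond their spread. The 3 WT libraries of set A had 0 reads and the 4 of set B had 2 to 6, so that the mean level of WT was -5.74 log2 RPKM in set A and -4.53 in set B. The TG Me-X04- mean was -1.19 log2 RPKM in set A and -0.37 in set B, and the TG Me-X04+ mean -0.14 in set A and -0.55 in set B. The step from WT to TG was present within both sets, and the TG fractions stood in opposite order in them. Summed over the libraries, Zbtb16 had 13 reads in WT libraries, 387 in TG Me-X04- and 337 in Me-X04+, or 0.0891, 3.40 and 4.51 RPM (reads relative to the scaled library size). The ratio to WT was 38.2 for TG Me-X04- and 50.7 for TG Me-X04+, given as a description of the values that chose the gene. The log2FC of TG Me-X04- against WT, 4.35 on the deposited scale, rests on the prior, and was 0.67 on log2(RPKM + 1), 2.44 on log2(RPKM + 0.1) and 5.34 with limma voom on the recovered reads. Even in TG microglia the level of Zbtb16, at most 0.49 log2 RPKM, was low beside that of Fkbp5, Sgk1 or Txnip.

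**Figure D1:**
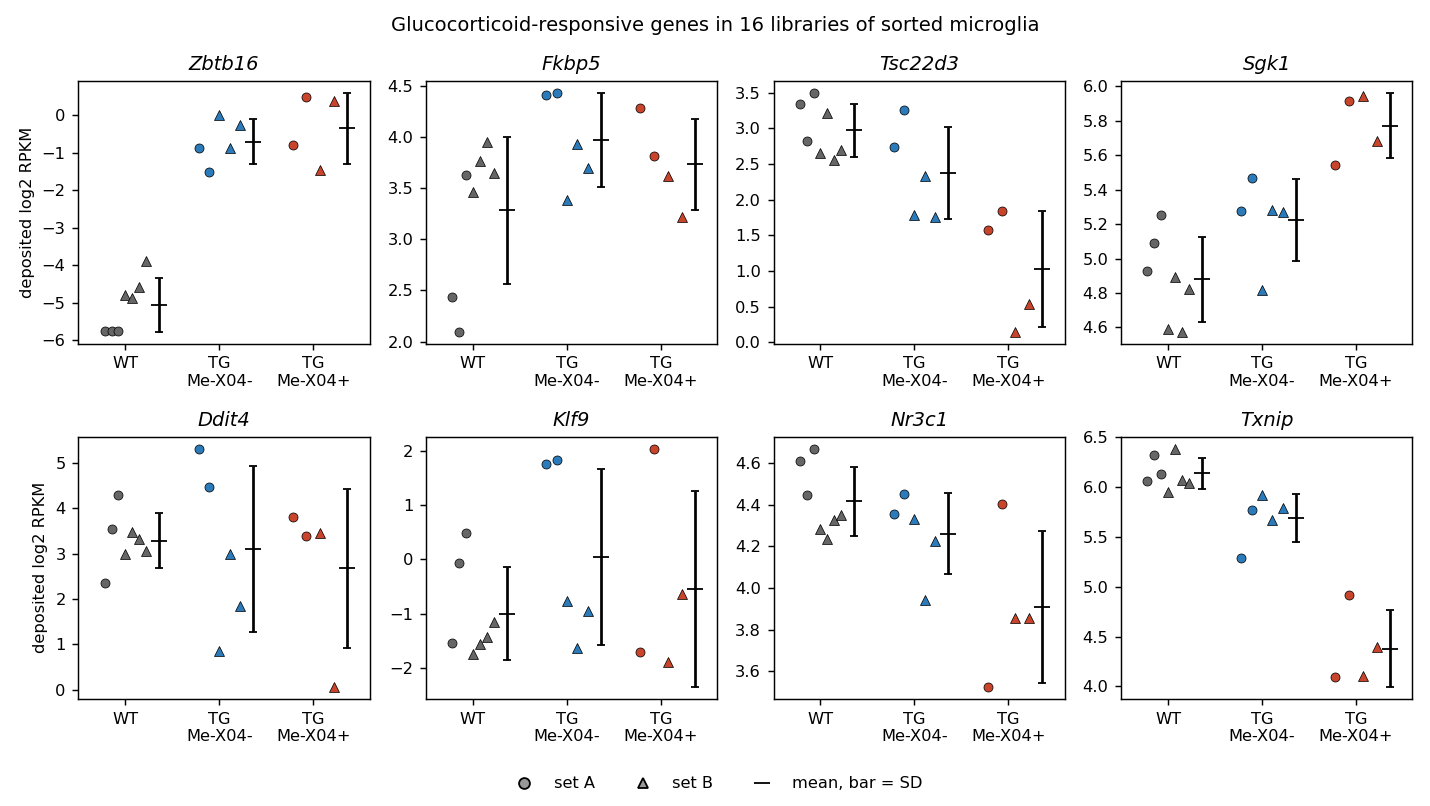
Level of each gene in each library, in log2 RPKM as deposited, with 1 point per library, circles for set A and triangles for set B, and a bar for the mean ± SD of the group. Zbtb16 separated WT from both TG groups, the group means of Sgk1 go up and those of Txnip and Tsc22d3 go down from left to right, and Klf9 and Ddit4 spread widely within the TG groups.

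The question of whether Zbtb16 moved alone in TG cells that had not taken up amyloid was addressed by comparing TG Me-X04- with WT microglia. Over all genes 34 (0.189%) were called higher and 2 (0.0111%) lower with an adjusted p under 0.05 and a log2FC of 0.7 or more in size. Of the other 7 genes limma called 0, while 3 had an unadjusted p under 0.05, against 929 of all 17951 genes (5.18%), and limma voom on the recovered reads also called 0. The 3 were Fkbp5 and Sgk1, with higher values, and Txnip, with lower ones. The median log2FC of the 7 genes was -0.16, and that of all genes 0.01.

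Fkbp5 (ENSMUSG00000024222, chr17:28399094-28517527, minus strand) encodes a co-chaperone that lowers the receptor's affinity for hormone, and is among the most widely used readouts of glucocorticoid exposure. Its levels in WT libraries were 2.43, 2.10, 3.63, 3.47, 3.77, 3.95 and 3.65 log2 RPKM from replicate 1 to 7. In TG Me-X04- libraries they were 4.42, 4.43, 3.38, 3.93 and 3.70 log2 RPKM, and in TG Me-X04+ libraries 4.29, 3.81, 3.62 and 3.22 log2 RPKM. All 3 groups overlapped. Of 4 small or non-coding genes annotated within Fkbp5, Gm22146 was in the table. The log2FC of TG Me-X04- against WT was 0.69 (SE 0.33, 95% interval 0.00 to 1.37, limma adjusted p = 0.964). It rested on set A, where the means were 2.72 log2 RPKM in WT and 4.43 in TG Me-X04-, while in set B they were 3.71 and 3.67. For TG Me-X04+ against Me-X04- it was -0.24 (SE 0.37, adjusted p = 0.791).

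Sgk1 (ENSMUSG00000019970, chr10:21882184-21999903, plus strand), a serum and glucocorticoid regulated kinase, is induced directly by the receptor. Its levels were 4.93, 5.09, 5.25, 4.59, 4.89, 4.58 and 4.82 log2 RPKM in WT and 5.28, 5.47, 4.82, 5.28 and 5.27 log2 RPKM in TG Me-X04- libraries. In TG Me-X04+ libraries they were 5.55, 5.91, 5.94 and 5.69 log2 RPKM, above every library of the other 2 groups. Sgk1 was thus the gene whose group means were ordered like those of Zbtb16, with a much smaller first step. The log2FC was 0.34 (SE 0.16, 95% interval 0.00 to 0.69, adjusted p = 0.964) for TG Me-X04- against WT and 0.55 (SE 0.19, 95% interval 0.16 to 0.94, adjusted p = 0.102) for TG Me-X04+ against Me-X04-. Neither step was called.

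Klf9 (ENSMUSG00000033863, chr19:23141226-23168134, plus strand), a Krüppel-like repressor induced by glucocorticoids in brain, was low and variable. It had 17, 50, 67, 20, 26, 28 and 33 reads in the WT libraries, 180, 229, 50, 24 and 39 in TG Me-X04- and 12, 200, 18 and 47 in Me-X04+. The 3 libraries above 100 reads were TG Me-X04- 1 and 2 and TG Me-X04+ 2, all of set A. Its log2FC was 1.05 (SE 0.76, 95% interval -0.55 to 2.64, adjusted p = 0.999) for TG Me-X04- against WT, with means of -0.37 and 1.79 log2 RPKM in set A but -1.48 and -1.12 in set B.

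Ddit4 (ENSMUSG00000020108, chr10:59949669-59951834, minus strand), also called Redd1, restrains mTORC1 and is induced by glucocorticoids, hypoxia and stress. The WT libraries lay between 2.35 and 4.30 log2 RPKM with a median of 3.31. TG Me-X04- libraries had 5.32, 4.47, 0.85, 2.99 and 1.84 log2 RPKM, from above all to below all WT libraries. TG Me-X04+ libraries had 3.80, 3.38, 3.45 and 0.06 log2 RPKM. The log2FC was -0.19 (SE 0.72, adjusted p = 0.999) for TG Me-X04- against WT, and the set A and set B means of TG Me-X04- were 4.90 and 1.90 log2 RPKM. The 95% interval reached 1.51 on either side of that log2FC, so a change of that size could not be told from the spread between libraries.

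Nr3c1 (ENSMUSG00000024431, chr18:39410545-39519421, minus strand), the glucocorticoid receptor gene, was expressed in every library. Its levels were 4.61, 4.45, 4.67, 4.28, 4.23, 4.33 and 4.35 log2 RPKM in WT libraries, 4.35, 4.45, 4.33, 3.94 and 4.23 in TG Me-X04- and 3.52, 4.41, 3.86 and 3.86 in Me-X04+ libraries. The log2FC of TG Me-X04- against WT was -0.16 (SE 0.17, 95% interval -0.51 to 0.19, adjusted p = 0.999). The step from TG Me-X04- to TG Me-X04+ was -0.35 (SE 0.19, 95% interval -0.75 to 0.05, adjusted p = 0.349), and in all 4 same-numbered pairs the Me-X04+ value was lower, by 0.05 to 0.83.

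Uptake of amyloid was addressed by comparing TG Me-X04+ with TG Me-X04- microglia. Over all genes 617 (3.44%) were called higher and 369 (2.06%) lower. Of the 7 genes 0 were called higher and 2 lower, Txnip and Tsc22d3, with a median log2FC of -0.42 against -0.09 for all genes. At an unadjusted p under 0.05 there were 3 of the 7, with Sgk1 as the higher one, against 18.7% of all genes, and limma voom called 0 higher and 2 lower.

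Txnip (ENSMUSG00000038393, chr3:96557957-96561883, plus strand) encodes a thioredoxin-binding arrestin that restrains glucose uptake and is induced by glucose and by glucocorticoids. Its levels were 6.05, 6.32, 6.12, 5.95, 6.38, 6.07 and 6.04 log2 RPKM in WT and 5.28, 5.77, 5.91, 5.67 and 5.79 log2 RPKM in TG Me-X04- libraries. In TG Me-X04+ libraries they were 4.10, 4.92, 4.10 and 4.39 log2 RPKM. No 2 of the 3 groups overlapped, and the order of levels was WT, TG Me-X04- and Me-X04+ from high to low. Txnip fell by 1.31 on the log2 scale in TG Me-X04+ against Me-X04- (SE 0.19, 95% interval -1.72 to -0.89, limma adjusted p = 0.00105), to 0.405 of the level. Against WT the value for TG Me-X04- was -0.45 (SE 0.17, 95% interval -0.81 to -0.09, adjusted p = 0.744), which was not called. Gm15441, which overlaps Txnip on the other strand, had means of 4.64, 4.02 and 2.92 log2 RPKM in WT, TG Me-X04- and Me-X04+, and as the strand of counting is not stated, reads of the pair cannot be told apart.

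Tsc22d3 (ENSMUSG00000031431, chrX:140539528-140600659, minus strand) encodes GILZ, the leucine zipper that carries part of the anti-inflammatory action of glucocorticoids. Its levels were 3.34, 2.82, 3.50, 2.66, 3.22, 2.56 and 2.70 log2 RPKM in WT libraries, 2.73, 3.26, 1.78, 2.33 and 1.76 in TG Me-X04- and 1.58, 1.84, 0.15 and 0.54 in Me-X04+ libraries. Every TG Me-X04+ library was below every WT library, while 1 TG Me-X04+ library, replicate 2, reached into the range of TG Me-X04-. Tsc22d3 fell by 1.35 in TG Me-X04+ against Me-X04- (SE 0.38, 95% interval -2.15 to -0.54, limma adjusted p = 0.0475). This call is near its threshold and was lost without any one of 6 libraries, TG Me-X04- 1, 2, 4 or 5 or TG Me-X04+ 3 or 4, with adjusted p between 0.0522 and 0.130, and in 4 of 11 other settings. Within set A the means were 3.00 and 1.71 log2 RPKM in TG Me-X04- and Me-X04+, and within set B 1.96 and 0.34.

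Each gene was also read within the 4 pairs of same-numbered TG libraries, which the sample titles do not state to be from the same animal. Tsc22d3 was lower in Me-X04+ cells in 4 of 4 pairs, by 1.16 to 1.79, and Txnip in 4 of 4, by 0.85 to 1.81. Sgk1 was higher in 4 of 4, by 0.27 to 1.12. Fkbp5 was lower in 3 of 4, with differences from -0.72 to 0.24. Ddit4 was lower in 3 of 4, from -2.94 to 2.60, and Klf9 in 2 of 4, from -3.46 to 1.00. Zbtb16 was higher in 3 of 4 and lower in 1, from -1.48 to 1.99. No test was run on these 4 pairs alone.

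**Figure D2:**
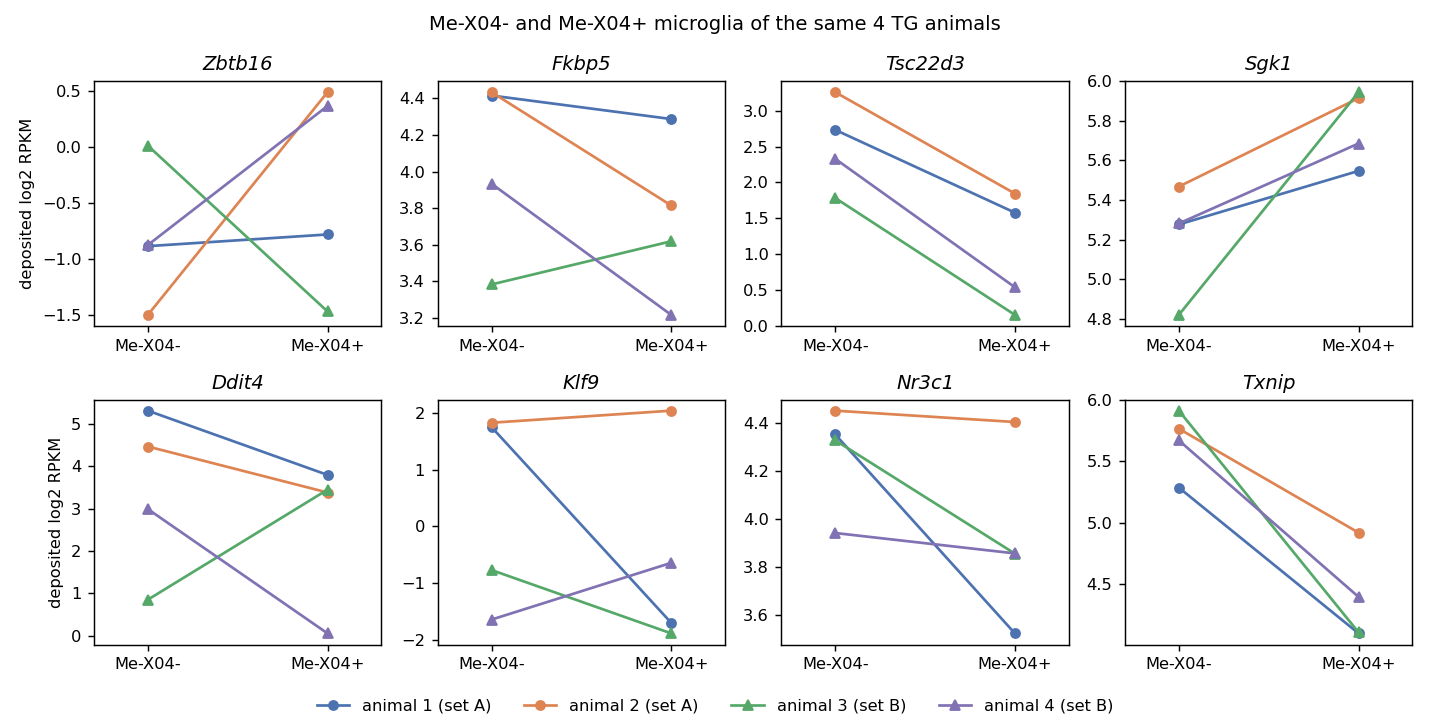
Log2 RPKM of each gene in the 4 same-numbered pairs of TG Me-X04- and Me-X04+ libraries, with a line per pair. The figure calls each pair an animal, which the sample titles do not state. The lines of Txnip, Tsc22d3 and Nr3c1 go down in 4 pairs, those of Sgk1 go up in 4, and those of Zbtb16, Klf9 and Ddit4 cross.

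In TG Me-X04+ against WT, a comparison that shares its libraries with the 2 above, 1481 genes (8.25%) were called higher and 1081 (6.02%) lower. Of the 7 genes 1 was called higher and 2 lower. Sgk1 rose by 0.89 (SE 0.17, 95% interval 0.53 to 1.26, adjusted p = 0.00179), or 1.86-fold. Tsc22d3 fell by 1.95 (SE 0.36, adjusted p = 0.00113) and Txnip fell by 1.75 (SE 0.18, adjusted p = 7.08e-06). Nr3c1 had a log2FC of -0.51 (SE 0.18, adjusted p = 0.0665), Ddit4 of -0.62 (SE 0.77, adjusted p = 0.664), and Fkbp5 and Klf9 of 0.45 and 0.46 (SE 0.35 and 0.81, adjusted p = 0.449 and 0.773). The share of mitochondrial reads moved with the groups as given above, and its part in these values was not tested. When the libraries were scaled by the reads outside mitochondrial genes, the log2FC of TG Me-X04+ against Me-X04- for Txnip was -1.58, for Tsc22d3 -1.62 and for Sgk1 0.28, where the median of all genes was -0.36 and the calls over all genes were 308 higher and 680 lower. The scaled log2FC of Sgk1 against WT was 0.73 (adjusted p = 0.00491). With quantile normalization it was 0.47 (adjusted p = 0.0437), under the fold threshold, and the log2FC of Sgk1 on uptake was 0.06, while Nr3c1 was called lower than in WT (-0.71, adjusted p = 0.00537).

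**Figure D3:**
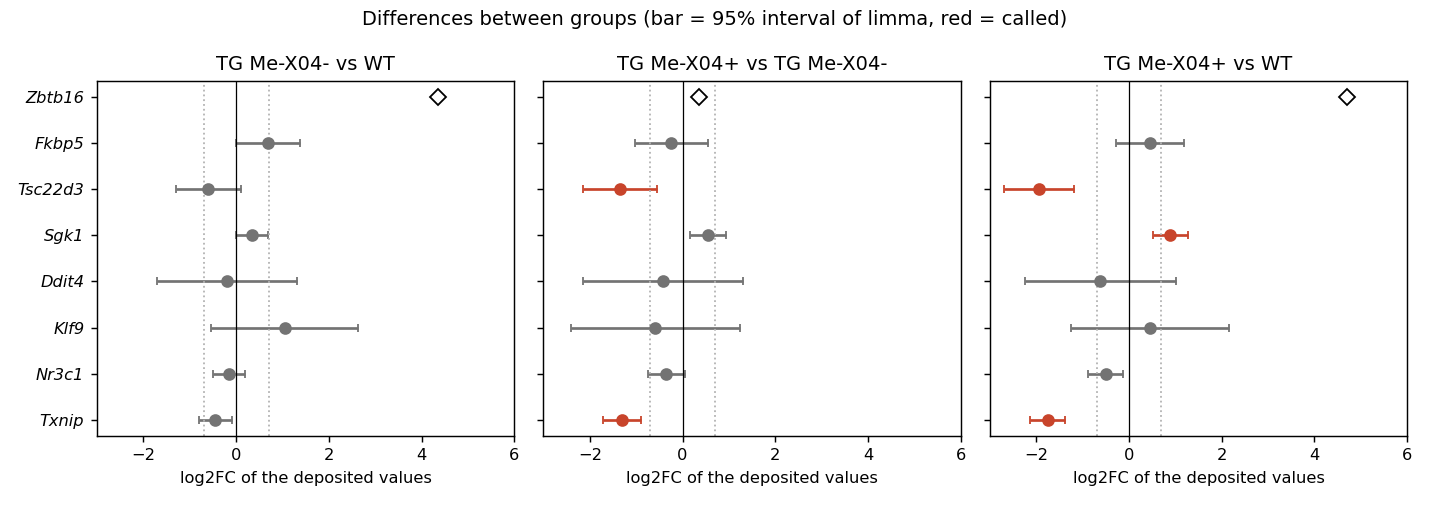
Log2FC of the 8 genes in the 3 comparisons, with the 95% interval of limma as bars, red for called genes and dotted lines at ±0.7. Zbtb16, drawn as an open diamond with no interval since it was chosen by these values, lies far to the right against WT and near 0 on uptake, while the other genes lie within 2 log2 units of 0.

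A wider list of genes that glucocorticoids induce was read for the same pattern. Of its 28 genes 22 were in the table, and Klf15, Pdk4, Angptl4, Il1r2, Anxa1 and Lcn2 were not. In TG Me-X04- against WT limma and limma voom called 0 of the 22, where limma called 0.189% of all genes higher and 0.0111% lower. At an unadjusted p under 0.05 there were 2 (9.09%, against 5.18% of all genes), Mt1 and Bcl6, both with higher values. The median log2FC was 0.12, beside 0.01 for all genes, and 13 of the 22 values were above 0. The values of the 22 genes ran from -0.53 to 1.86. Among classical targets, Per1, a clock gene, had a log2FC of -0.22 (SE 0.33) and Glul, glutamine synthetase, of -0.03 (SE 0.21). That of Dusp1, a MAP kinase phosphatase, was -0.22 (SE 0.53). These targets were named after their values were seen. Each SE was larger than the log2FC in size, so the values do not show that these targets were unchanged. Widest from 0 were Cd163 (1.86, SE 1.02) and Fam107a (1.75, SE 0.88), neither of which was called (adjusted p = 0.999 for both).

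In TG Me-X04+ against Me-X04- 0 of the 22 were called higher and 3 lower, beside 3.44% and 2.06% of all genes, and 18 values were below 0, with a median of -0.40 beside -0.09 for all genes. At an unadjusted p under 0.05 there were 6 of the 22 (27.3%, 1 higher and 5 lower), against 18.7% of all genes, and voom called 1 higher and 2 lower. Hif3a, a regulator of the hypoxia response, fell by 3.73 (SE 0.90, adjusted p = 0.0210), from 40 to 270 reads in TG Me-X04- libraries to 0 to 29 reads. Cdkn1c, a cyclin-dependent kinase inhibitor, fell by 2.52 (SE 0.72, adjusted p = 0.0499). Sult1a1, a phenol sulfotransferase, fell by 0.99 (SE 0.25, adjusted p = 0.0253), without overlap between the groups. The groups overlapped for Hif3a and Cdkn1c. The call of Hif3a was lost in the fit blocked on replicate numbers (limma adjusted p = 0.0730). The count of 3 became 0 without TG Me-X04+ 1 and 1 without TG Me-X04- 4. Compared with WT, Me-X04+ cells had 2 of the 22 called higher and 4 lower, beside 8.25% and 6.02% of all genes. The higher ones were Mt1, a metallothionein (log2FC 2.35, adjusted p = 0.00265), and Bcl6, a transcription repressor (1.49, adjusted p = 0.00151). The lower ones were Hif3a, Cdkn1c, Sult1a1 and Cebpd. With the block Cdkn1c alone was called (limma adjusted p = 0.0138, against 0.0930 for Hif3a, 0.122 for Sult1a1 and 0.0945 for Cebpd). In this comparison the block joins WT and TG libraries of different animals by number alone.

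**Figure D4:**
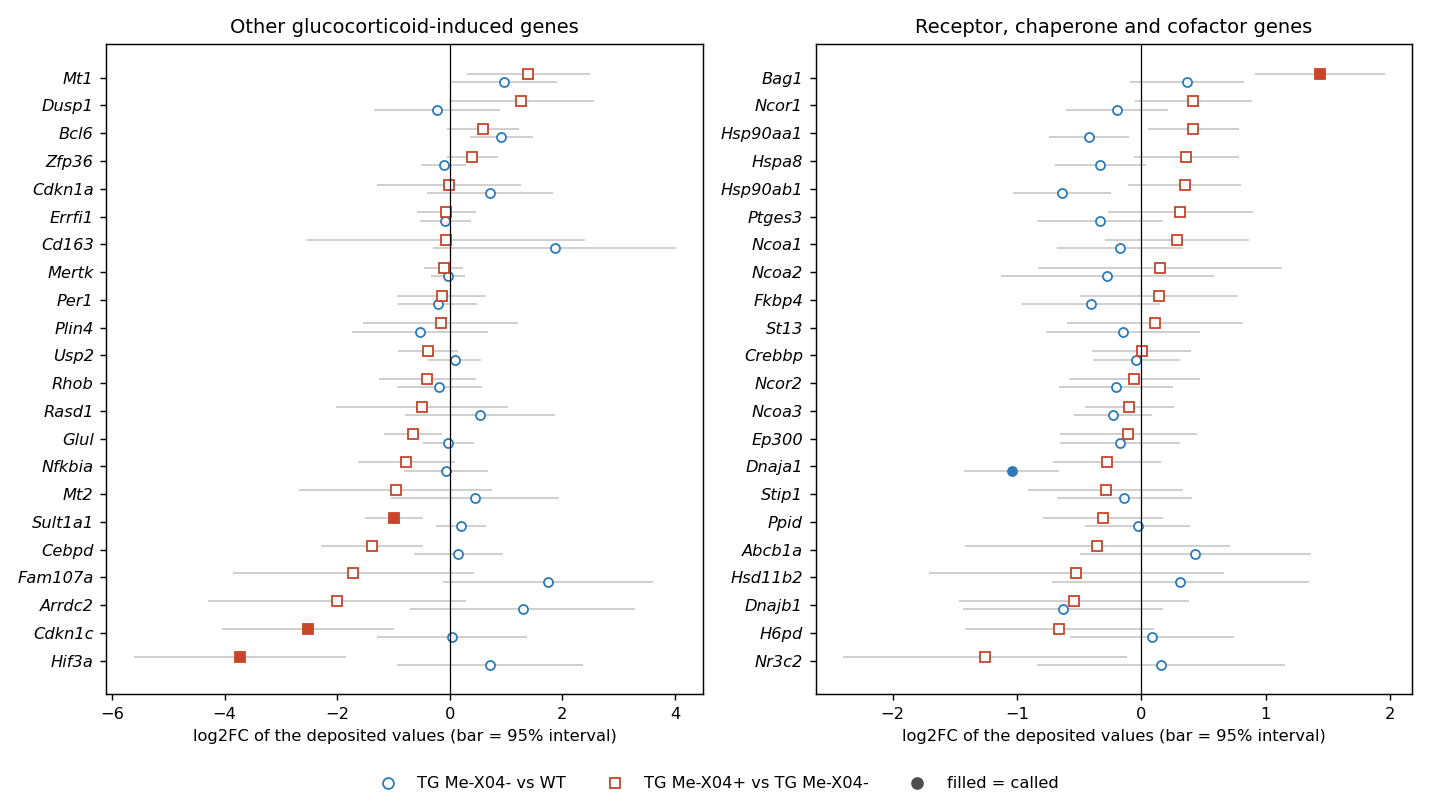
Log2FC with 95% intervals of 22 other glucocorticoid-induced genes (left) and 22 genes of the receptor, its chaperones and cofactors (right), circles for TG Me-X04- vs WT and squares for TG Me-X04+ vs TG Me-X04-, filled where called. The filled symbols are Hif3a, Cdkn1c and Sult1a1 on the left and Bag1 and Dnaja1 on the right.

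Of 23 genes of the receptor's chaperones, cofactors and hormone metabolism, 22 were in the table, and Hsd11b1, which regenerates active hormone, was not. In TG Me-X04- against WT 3 of the 22 (13.6%, 0 higher and 3 lower) had an unadjusted p under 0.05, against 5.18% of all genes. Called there were 0 higher and 1 lower, beside 0.189% and 0.0111% of all genes. The gene called lower was Dnaja1, an Hsp40 co-chaperone, which fell by 1.04 (SE 0.18, adjusted p = 0.0163), from 3.17 to 3.82 log2 RPKM in WT to 2.18 to 2.59 log2 RPKM. With the replicate block its value was -1.08 (SE 0.21, adjusted p = 0.113), which was not called. The Hsp90 gene Hsp90ab1 had a log2FC of -0.64 (SE 0.19, adjusted p = 0.388) and Fkbp4, the co-chaperone that competes with Fkbp5, of -0.41 (SE 0.26, adjusted p = 0.999). In TG Me-X04+ against Me-X04- 3 of the 22 (13.6%, 2 higher and 1 lower) had an unadjusted p under 0.05, against 18.7% of all genes. Called there were 1 higher and 0 lower, beside 3.44% and 2.06% of all genes. Bag1, an Hsp70 co-chaperone that restrains the receptor, rose by 1.44 (SE 0.25, adjusted p = 0.00248), without overlap. The mineralocorticoid receptor gene Nr3c2, which binds the same hormone, had a value of -1.26 (SE 0.54, adjusted p = 0.214).

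Of 11 inflammatory genes that glucocorticoids repress, 8 were in the table. Both limma and limma voom called 0 of them in TG Me-X04- against WT and 0 in TG Me-X04+ against Me-X04-, with 2 (25%) and 3 (37.5%) at an unadjusted p under 0.05, against 5.18% and 18.7% of all genes. Their median log2FC in TG Me-X04- against WT was 1.01, with 7 of 8 above 0, led by the chemokine gene Cxcl10 at 2.75 (adjusted p = 0.235). On uptake the median was -0.43. Against WT, TG Me-X04+ microglia had a call for Cxcl10, higher (2.36, SE 0.77, limma adjusted p = 0.0488). Il1a, an interleukin gene, was called lower (-0.71, SE 0.20, adjusted p = 0.0208), while voom called 0. The call of Cxcl10 was lost with the replicate block (adjusted p = 0.0889), which joins WT and TG libraries of different animals. Genes that respond to tissue dissociation and handling were read beside them, as several are also stress responsive. Of 11, 9 were in the table, 0 were called in TG Me-X04- against WT by limma or limma voom, with 5 (55.6%, 3 higher and 2 lower) at an unadjusted p under 0.05 against 5.18% of all genes. The stress factor Atf3 alone was called in TG Me-X04+ against Me-X04- (log2FC 1.84, SE 0.46, adjusted p = 0.0258), where voom called 3 higher and 5 of the 9 (55.6%) had an unadjusted p under 0.05, against 18.7% of all genes. In the comparison in which Sgk1 was called, of TG Me-X04+ with WT, 4 of the 9 were called higher and 2 lower, beside 8.25% and 6.02% of all genes. The 4 were Atf3, Egr1, Ier3 and Nfkbiz, and the 2 were the Hsp70 genes Hspa1a and Hspa1b. The part of handling in the values above was not tested.

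The table held 37 other genes with a Zbtb symbol, most of which encode related BTB zinc finger proteins, while Zbtb11os1 and Zbtb8os do not. Of these limma called 0 in TG Me-X04- against WT, beside 0.189% of all genes called higher and 0.0111% lower. At an unadjusted p under 0.05 there was 1 (2.7%), against 5.18% of all genes. The log2FC of the 37 genes ran from -0.46 (Zbtb46) to 1.10 (Zbtb3, SE 0.91). On uptake limma also called 0, with 6 at an unadjusted p under 0.05, and voom called 1 lower. Called lower in TG Me-X04+ than in WT were 4 of the 37, Zbtb18, Zbtb34, Zbtb37 and Zbtb40, beside 6.02% of all genes. In that comparison 8 of the 37 (21.6%) had an unadjusted p under 0.05, against 27.8% of all genes. The genes on either side of Zbtb16 were picked by their position once the data had been seen. Within 500000 bases the table held Rexo2, Rbm7, Usp28 and Zw10 and the small genes Gm5616 and Gm5617, while the nearest on each side, Nnmt and Htr3a, were not in it. Rbm7 had means of 3.44, 3.31 and 3.18 log2 RPKM in WT, TG Me-X04- and Me-X04+, and Usp28 of 1.21, 1.21 and 1.33 log2 RPKM. Rexo2 had 4.59, 4.45 and 4.83 log2 RPKM and Zw10 1.88, 1.02 and 1.71. Gm5616 had 1.85, 2.16 and 2.72 log2 RPKM and Gm5617 2.26, 2.94 and 1.33, with SDs of up to 1.73 between libraries. None had a difference near the step of 4.35 of Zbtb16, and no test of the neighbours was made.

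Zbtb16 was chosen for a step from WT to TG Me-X04- with little further change on uptake. Zbtb16 itself is therefore left out of the calls read here. Among the other genes, Mrc2, a collagen receptor, was called higher in TG Me-X04- against WT with a log2FC under 0.7 in size on uptake. Its means were 1.92, 3.03 and 3.71 log2 RPKM in WT, TG Me-X04- and Me-X04+. Its first step was 1.11 (limma adjusted p = 0.0459) and its second 0.68, just under the threshold. With the replicate block, which joins WT and TG libraries of different animals, the first step had an adjusted p of 0.198. Both steps share the TG Me-X04- libraries.

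Over the 16 libraries the gene most like Zbtb16 by Pearson's r of log2 RPKM was Oas3, an oligoadenylate synthetase (r = 0.905), followed by Sp100, a nuclear body protein (0.903), Slfn5 (0.897), Pdcd1, the PD-1 receptor (0.894), and Bub1, a mitotic checkpoint kinase (0.893). Hcar2, Cxcr4, Ifi211, Baiap2l2 and Cst7 completed the first 10, down to an r of 0.868. These correlations are descriptions over 16 points that share the 3 groups, the 2 sets and the prior at 0 reads, so genes low in WT and higher in TG come first. The order follows the step for which Zbtb16 was chosen, so the ranks of the glucocorticoid genes are a description only. Of 17950 genes Sgk1 ranked 863 (r = 0.62), Fkbp5 2058 (0.47), Klf9 4310 (0.26), Ddit4 13782 (-0.29), Nr3c1 16746 (-0.53), Txnip 17597 (-0.66) and Tsc22d3 17644 (-0.68).

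Once the group means had been removed, the deviations of Zbtb16 in the 16 libraries had an r between -0.55 (Sgk1) and 0.37 (Txnip) with those of the other 7 genes, and 0.11 with Fkbp5. With the means of group and set removed the range was -0.67 (Ddit4) to 0.67 (Klf9), and the value for Fkbp5 turned to -0.36. Among the glucocorticoid genes themselves Klf9 and Nr3c1 deviated together, at 0.80 without the group means and 0.81 without those of group and set. Fkbp5 and Tsc22d3, both widely used readouts of the hormone, had an r of 0.34. The points share libraries and depth, and no test was made of these values.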

How the data were processed

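RNA of sorted microglia was sequenced in 16 libraries (7 WT, 5 TG Me-X04- and 4 Me-X04+). The authors deposited log2 RPKM values for 17951 genes, with a prior of 2 reads at the mean library size. Before that, the authors trimmed reads with Trim Galore 0.4.4, aligned them to GRCm38 with STAR 2.5.4b, counted them with featureCounts on Gencode genes, filtered low genes and scaled by TMM in edgeR 3.24.3. Libraries came from an amplifying kit and were sequenced on 2 platforms, and which library ran on which is not given in the sources used here. The table also holds log2 fold changes, mean expression, t, p-values, adjusted p-values and log odds of the authors' own comparisons, which were not used.

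Groups were taken from the sample labels. Tests were run in R 4.3.3 by lmFit and eBayes of limma 3.58.1, with a variance trend and the 3 groups in 1 fit. They were two-sided, and p-values were adjusted by Benjamini-Hochberg across the 17951 genes. Calls needed an adjusted p under 0.05 and a log2FC of 0.7 or more in size. The quasi-likelihood test of the study's methods needs counts and was not run. Reads were recovered from the steps of the values (100% whole within 0.01) and served for depths, pooled ratios and limma voom, which called 22 genes higher and 3 lower in TG Me-X04- against WT, 738 and 287 in TG Me-X04+ against Me-X04-, and 1518 and 810 in TG Me-X04+ against WT. The fit was checked on simulated data before use. Replicates are separate libraries by their labels, and whether TG libraries of the same number share an animal is not stated in the sample titles. Same-numbered TG libraries deviated together (mean r 0.317, lowest 0.292), though TG libraries of other numbers in the same set did so nearly as much (mean r 0.272), while the numbers of WT libraries stand for other animals, so the number served as a block in an alternative.

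The genes followed and all gene lists were chosen with earlier results of these data known. The text names all 8 members, at most 6 called genes of each list, the 10 genes most like Zbtb16 by Pearson's r, and the genes called higher in TG Me-X04- with no further step on uptake. Per1, Glul, Dusp1, Cd163, Fam107a, Mt1, Bcl6, Cebpd, Cxcl10, Il1a, Egr1, Ier3, Nfkbiz, Hspa1a, Hspa1b, Hsp90ab1, Fkbp4, Nr3c2, Pecam1, Cdh5, Zbtb3, Zbtb46, the 4 lower Zbtb genes and the neighbours of Zbtb16 were named after their values were seen. Symbols were deposited for 12919 genes and came from the reference for 4874. Coordinates are those of Gencode on GRCm38 (a later release than the authors counted on), and promoter windows those of RefSeq on GRCm38.p6. Alternatives were no variance trend, library weights, quantile normalization, scaling by reads outside mitochondrial genes, pseudocounts of 1 and 0.1, a filter at a mean log2 value of 0, only the 2 groups compared, the block, a term for the set of each library, limma voom and each library left out in turn.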

Additional observations from a re-analysis of the deposited data

Results flagged for a closer look

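Of 24 combinations of a gene and a group, 1 had a library that stood apart by Dixon's gap test at the 95% level, and chance flags about 1 in 20 groups. Ddit4 in TG Me-X04+ 4 was at 0.055 log2 RPKM (39 reads), while the other 3 libraries of that group were at 3.38 to 3.80. The gap took 0.889 of the range of the group. The TG Me-X04- library of the same number was at 2.99, and TG Me-X04- 3 was also low at 0.85 log2 RPKM.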

How the results depend on the processing

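Over 11 alternative settings and the fits without 1 library, the count of the 7 genes called in TG Me-X04- against WT stayed at 0 and that in TG Me-X04+ against WT at 3, though with quantile normalization Nr3c1 was called lower there in place of Sgk1. In TG Me-X04+ against Me-X04- the count of 2 became 1 with no variance trend, with quantile normalization, with log2(value + 1) and with only the 2 groups compared, and lay between 1 and 2 without 1 library. The gene lost was Tsc22d3 each time, at an adjusted p of 0.0603, 0.0709, 0.0622 and 0.153. The 3 calls of the glucocorticoid-induced list in that comparison became 5 when scaled by reads outside mitochondrial genes, and 1 with log2(value + 1), with the filter at a mean log2 value of 0 and with only the 2 groups compared, and lay between 0 and 3 without 1 library. The replicate block left 2 and 3 of the 7 genes called in the comparisons of TG Me-X04+, with Tsc22d3 at an adjusted p of 0.0471 and Txnip at 0.00472 against TG Me-X04-, and 2 calls in the list. It changed no call of the 7 genes. The block took the calls over all genes in TG Me-X04- against WT from 34 higher and 2 lower to 18 and 0. There it joins libraries of different animals. A term for the 2 sets of libraries gave 81 and 20 there, and 1324 and 818 in TG Me-X04+ against Me-X04-, and library weights gave 143 and 32 in the first comparison.

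The filter at a mean log2 value of 0 leaves out Zbtb16 and Klf9. Quantile normalization added a call for Nr3c1 in TG Me-X04+ against WT (-0.71, adjusted p = 0.00537). Library weights turned Fkbp5 in that comparison to -0.13. Without 1 library Ddit4 ranged from -0.75 to 0.37 in TG Me-X04- against WT (0.37 without TG Me-X04- 3 and 0.12 without TG Me-X04- 5), from -0.98 to 0.45 in TG Me-X04+ against Me-X04- (0.13 without TG Me-X04- 1 and 0.45 without TG Me-X04+ 4) and from -0.99 to 0.26 in TG Me-X04+ against WT (0.26 without TG Me-X04+ 4). Klf9 in TG Me-X04+ against WT ranged from -0.41, without TG Me-X04+ 2, to 0.90. The cause of these changes was not tested. The log2FC of Zbtb16 in TG Me-X04+ against WT, 4.70 as deposited, was 0.85 on log2(value + 1), 2.76 on log2(value + 0.1) and 5.63 with voom. Depth limits Zbtb16 in WT, at 0 to 6 reads, and Klf9, at 12 to 229 reads.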
